A study of Mus musculus with 40 samples.

Results

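The solute carrier family 25 (Slc25) was represented on the arrays by 44 genes, out of 18194 genes with a probe set of their own. They were chosen by name: all probe sets annotated to exactly 1 gene whose symbol starts with Slc25a, 93 in all, and for each gene the probe set with the highest mean over the 39 arrays. That rule uses names and mean levels and no difference between groups, but it was set with earlier results of these data known. Of the 44 genes, 42 passed the filter on low values and were tested. Slc25a37 (mitoferrin 1, an iron carrier) was above the overall median of 5.34 log2 units on 0 arrays, and Slc25a41 (an ATP-Mg/phosphate carrier) on 2 arrays, which leaves both not detectable at this signal rather than absent.

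Slc25 proteins sit, with few exceptions, in the inner mitochondrial membrane and exchange nucleotides, phosphate, carboxylates, amino acids, cofactors or metals between cytosol and matrix. They are encoded in the nucleus, made in the cytosol and inserted through the small Tim chaperones and the TIM22 complex. The cleaving mouse embryo lives on mitochondria inherited from the egg and on pyruvate-driven respiration, and the major activation of its own genome falls at the 2-cell stage, when RNA stored by the egg is being cleared.

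The arrays measured poly(A) RNA of B6D2 mouse embryos at the 1-cell and 2-cell stages. Their origin was fertilization, somatic cell nuclear transfer (SCNT, where a body cell's nucleus takes the place of the egg's own) with cumulus cells of B6D2 females as donors, or parthenogenesis (activation of the egg without sperm, spelled parthenogenic in the labels). At both stages a set of the fertilized and of the SCNT embryos received α-amanitin, which inhibits RNA polymerase II, and no parthenogenetic embryos did. This gave 10 groups of 4 arrays, except that 1 column of the untreated 1-cell SCNT embryos holds no values, so 3 arrays stood for that group.

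The labels give no dose, no hour of collection and no number of embryos per sample. Nothing in them makes the replicates separate cultures or animals, so p-values measure only the spread between these samples, which may be technical. The letter A in the titles was read as amanitin: the labels of 7 of the 8 SCNT samples with that letter spell it out, and for the fertilized samples the shared letter and the series' design text are the basis. The culture medium given is MEMα with SCNT embryos and KSOM with 1 fertilized sample, so medium and origin cannot be told apart. In whole embryos, fewer cells with an RNA and less RNA per cell cannot be told apart either.

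Values are log2 intensity, quantile normalized, given as mean ± SD over 4 arrays (3 for untreated 1-cell SCNT), and differences are in log2 units with the standard error (SE) of the fit. A constant of 6.9 was added to each intensity before the log, so a fold understates the change of dim genes. The number of arrays limits the precision of every value. A gene rose or fell where limma's p, adjusted by the method of Benjamini and Hochberg over 14880 genes, was under 0.05. The array has no scale on which the level of 1 gene can be set against that of another, so levels are compared only within a gene. Each array was scaled and quantile normalized, so a rise or fall is relative to the other poly(A) RNA on the array and is no absolute amount.

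All 8 oocyte markers were measured, and 7 to 8 were above the overall median in every group. Of 6 markers of the 2-cell stage 4 were measured, and their summed intensity was 5260 to 11800 in untreated 2-cell embryos and 109 to 908 in all other groups. Of 7 measured cumulus cell markers 1 to 4 were above the median, and none was at 0 on all arrays of a group. Their summed intensity was 807 to 3630 in the untreated 2-cell groups and 85.4 to 346 elsewhere. Across the 14880 genes tested, correlations within a group were 0.94 to 0.98. The poly(A) spike controls averaged 3.60 and 3.73 on the untreated and amanitin 1-cell SCNT arrays, against 5.88 to 9.60 in other groups. The amanitin 2-cell SCNT arrays had the highest hybridization controls (10.55 against 9.16 to 9.71) and the lowest replicate correlations. A control probe set for the 3′ part of 18S ribosomal RNA averaged 9.50, 10.14 and 11.45 in untreated 2-cell fertilized, SCNT and parthenogenetic embryos. In the other 7 groups it averaged 12.57 to 13.49. The part of these measures in the results below was not tested.

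**Figure D1:**
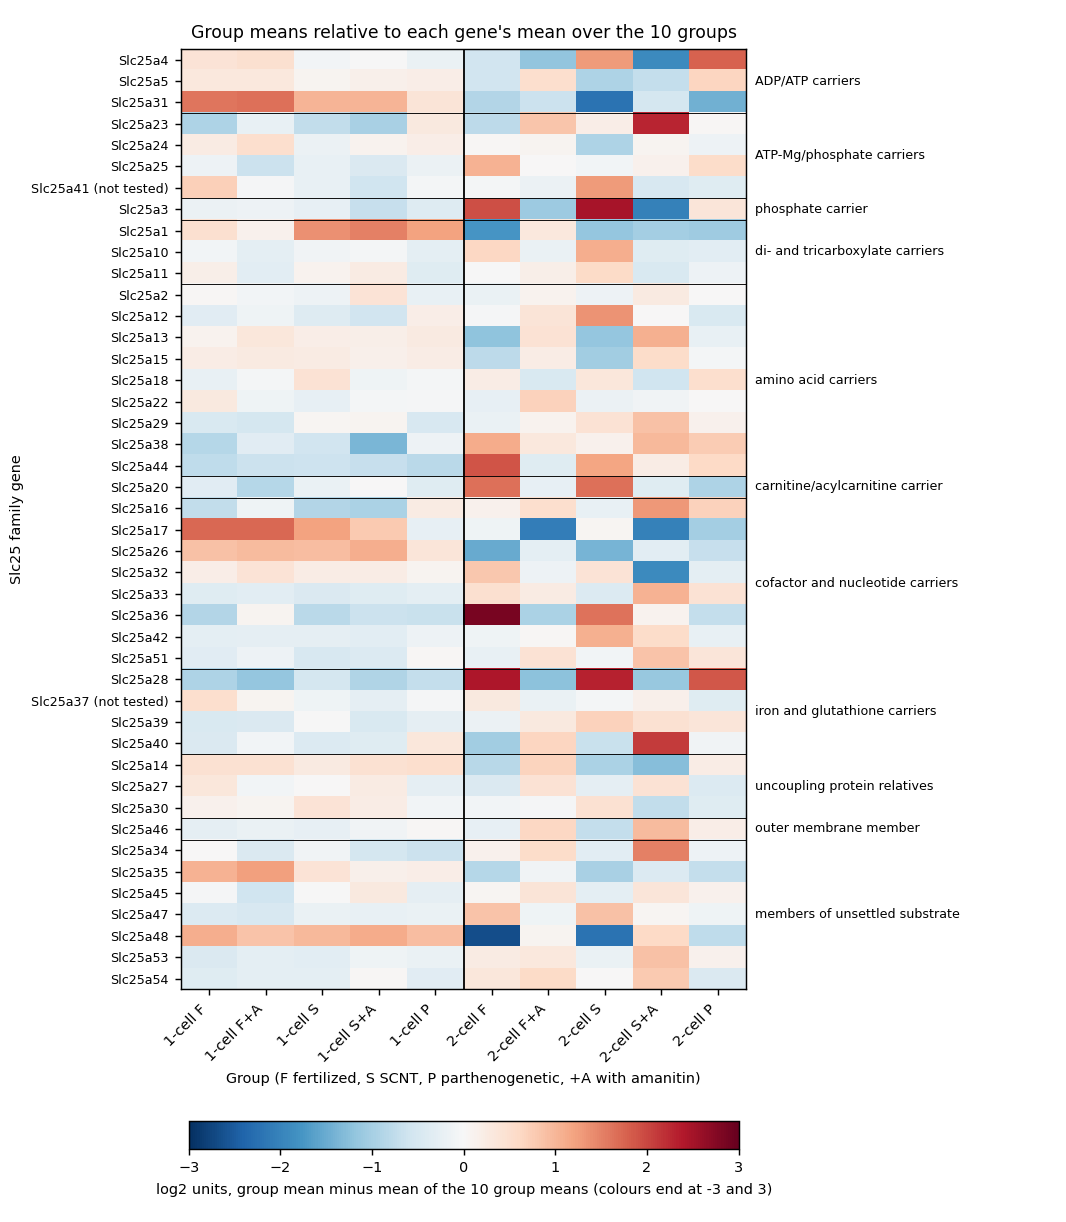
Group mean of each of the 44 genes minus the mean of its 10 group means, in log2 units (colour, ending at -3 and 3), with genes in rows ordered by the substrate of the carrier and groups in columns, 1-cell on the left of the vertical line and 2-cell on the right. The strongest colours lie at the 2-cell stage, as for Slc25a3, Slc25a28 and Slc25a36 (higher without amanitin) and Slc25a48 (lower without amanitin).

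Across the 10 groups the means of Slc25a3, the phosphate carrier, spanned 4.5 log2 units, the widest range of the 44 genes. Slc25a31 (3.87), Slc25a17 (3.81), Slc25a36 (3.80) and Slc25a48 (3.76) followed. The narrowest ranges were those of Slc25a2 (0.64), Slc25a37 (0.87), Slc25a27 (0.88) and Slc25a22 (0.93). Slc25a2, Slc25a18, Slc25a24, Slc25a27 and Slc25a54 passed the filter but had group means above the overall median in 1 to 4 of the 10 groups. Of the 42 tested genes, Slc25a2 and Slc25a54 were called in none of the 15 comparisons of groups.

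From the 1-cell to the 2-cell stage, 27 of the 42 tested members changed in fertilized embryos, 13 upward and 14 downward, against 60.1% of all genes tested (25.8% higher and 34.3% lower). In SCNT embryos 28 changed, 16 upward and 12 downward, beside 60.8% of all genes tested (26.2% higher and 34.5% lower). In parthenogenetic embryos 23 changed, 12 upward and 11 downward, beside 49.2% of all genes tested (21.7% higher and 27.5% lower). The shares of the members were close to those of all genes, so the counts themselves set the family apart in none of the 3 origins. The median change of the members was 0.13, 0.10 and 0.01 in these 3 origins, and that of all genes -0.13, -0.14 and -0.04. With each array centred on its median instead, the split was 11 upward and 13 downward in SCNT and 7 upward and 14 downward in parthenogenetic embryos.

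The ADP/ATP carriers bring ATP out of the matrix in exchange for ADP. Slc25a4 (Ant1) is the form of heart and muscle, Slc25a5 (Ant2) that of proliferating cells, and Slc25a31 (Ant4) that of the germ line. Each of the 3 took its own course between the stages.

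Slc25a31 (probe set 1453133_at) was measured at 10.02, 10.53, 10.29 and 10.22 in 1-cell fertilized embryos and at 7.78, 7.95, 7.88 and 7.51 in 2-cell ones. In SCNT embryos it stood at 9.64, 10 and 9.39 at the 1-cell and at 6.21, 6.87, 6.20 and 6.43 at the 2-cell stage. In parthenogenetic embryos the values were 9.06, 9.06, 9.12 and 8.93 and then 7.40, 7.13, 7.29 and 6.97. The arrays of the stages did not overlap in any origin, and the 2-cell SCNT arrays were the lowest of all. The fall was -2.49 in fertilized (SE 0.16, adjusted p = 5.56e-17), -3.25 in SCNT (SE 0.17, adjusted p = 1.69e-19) and -1.84 in parthenogenetic embryos (SE 0.16, adjusted p = 9.03e-13). It differed from that of fertilized embryos by -0.76 (SE 0.24, adjusted p = 0.0177) in SCNT and by 0.64 (SE 0.23, adjusted p = 0.0238) in parthenogenetic embryos. Both of these differences were lost under some settings: the first without 1-cell SCNT replicate 3 (-0.60, adjusted p = 0.0935) and with values as deposited (-0.58, adjusted p = 0.0612), the second with median centring (0.37, adjusted p = 0.274) and without 1-cell fertilized replicate 2 (0.55, adjusted p = 0.066), 2-cell fertilized replicate 4 (0.55, adjusted p = 0.0632) or 2-cell parthenogenetic replicate 1 (0.57, adjusted p = 0.0558).

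Slc25a4 (probe set 1424562_a_at) went in opposite directions. It was at 7.57, 7.27, 7.64 and 7.56 in 1-cell and at 6.52, 6.49, 6.75 and 6.35 in 2-cell fertilized embryos. In SCNT embryos it was at 7.22, 6.84 and 6.97 and then at 8.78, 8.23, 8.14 and 8.40. In parthenogenetic embryos it was at 6.84, 6.88, 7.04 and 6.86 and then at 8.73, 8.64, 9.03 and 9.11. So the 2-cell arrays were the lower ones after fertilization and the higher ones in both other origins, without overlap in each. The change was -0.98 (SE 0.21, adjusted p = 0.000115) in fertilized, 1.38 (SE 0.23, adjusted p = 2.06e-06) in SCNT and 1.98 (SE 0.21, adjusted p = 3.01e-10) in parthenogenetic embryos. The test of the difference gave 2.36 (SE 0.32, adjusted p = 4.92e-07) for SCNT minus fertilized and 2.96 (SE 0.30, adjusted p = 2.96e-10) for parthenogenetic minus fertilized. With the mean of the probe sets of Slc25a4 the fall in fertilized embryos was no longer called (-0.30, adjusted p = 0.0694). The same held for the probe set that is highest on the deposited scale (-0.39, adjusted p = 0.31).

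Slc25a5 (probe set 1434801_x_at, whose suffix marks probes shared with other transcripts) was at 11.12, 10.73, 10.96 and 10.74 in 1-cell and 10.02, 10.29, 9.88 and 9.79 in 2-cell fertilized embryos. In SCNT embryos it was at 10.57, 10.64 and 10.74, then at 9.89, 9.70, 9.61 and 9.39. In parthenogenetic embryos it was at 10.63, 10.81, 10.82 and 10.84, then at 11.33, 11.00, 11.16 and 11.41. It was thus lower at the 2-cell stage in fertilized and SCNT embryos and, by a smaller step, higher in parthenogenetic ones, with no overlap of arrays. The changes were -0.89 (SE 0.11, adjusted p = 2.49e-09), -1.0 (SE 0.12, adjusted p = 9.92e-10) and 0.45 (SE 0.11, adjusted p = 0.000608), and the last turned to -0.19 (adjusted p = 0.169) with median centring and was not called with the mean of the probe sets (0.26, adjusted p = 0.0525). The parthenogenetic change differed from the fertilized one by 1.34 (SE 0.15, adjusted p = 3.82e-09), and the SCNT change by -0.11 (SE 0.16, adjusted p = 0.708).

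**Figure D2:**
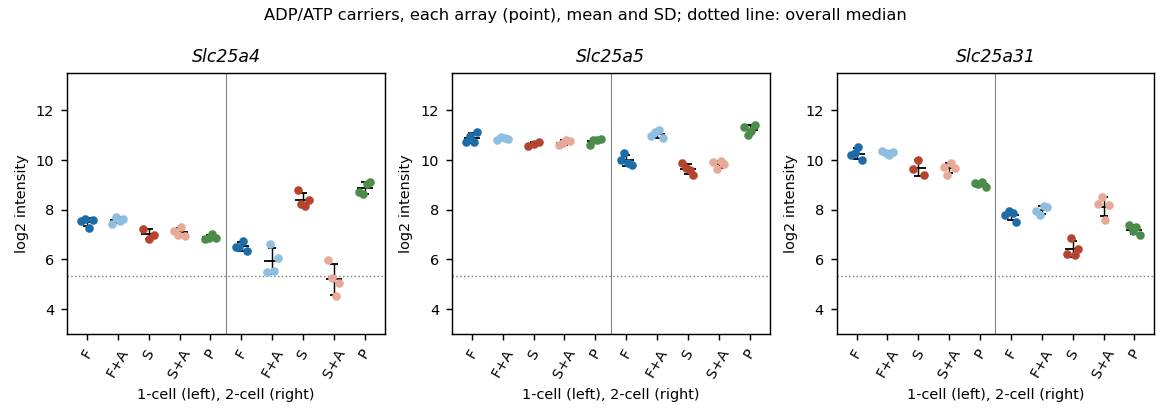
Log2 intensity of the 3 ADP/ATP carriers on each array (points) with the mean and SD of each group (F fertilized, S SCNT, P parthenogenetic, +A with amanitin), 1-cell groups on the left and 2-cell groups on the right of the vertical line; the dotted line is the overall median. Slc25a4 is highest in 2-cell SCNT and parthenogenetic embryos (8.39 ± 0.28 and 8.88 ± 0.23), Slc25a31 is lower at the 2-cell than at the 1-cell stage in each of the 5 kinds of embryo, and Slc25a5 spans 1.58 log2 units between its lowest and highest group means.

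Slc25a3, the carrier that brings in the phosphate from which ATP is made, was the member with the largest stage change in SCNT embryos after Slc25a28, Slc25a31 and Slc25a48. It was at 9.70, 10.26, 10.37 and 10.26 in 1-cell fertilized embryos and at 12.22, 12.26, 12.24 and 12.29 in 2-cell ones (probe set 1416300_a_at). In SCNT embryos it was at 10.04, 10.13 and 10.05 and then at 12.72, 12.91, 12.75 and 12.76. In parthenogenetic embryos it was at 9.91, 9.93, 10 and 9.86 and then at 10.50, 10.75, 10.68 and 10.75. All 2-cell arrays without amanitin lay above all 1-cell arrays of Slc25a3. The rise was 2.11 (SE 0.12, adjusted p = 1.86e-18) in fertilized, 2.71 (SE 0.13, adjusted p = 9.54e-21) in SCNT and 0.74 (SE 0.12, adjusted p = 2.07e-06) in parthenogenetic embryos, and the last was not called with median centring (0.15, adjusted p = 0.321). It was smaller in parthenogenetic than in fertilized embryos (-1.37, SE 0.17, adjusted p = 3e-08) and larger in SCNT embryos (0.60, SE 0.18, adjusted p = 0.014). The SCNT difference was not called with values as deposited (0.43, adjusted p = 0.079) or with median centring (0.26, adjusted p = 0.365). With the mean of its probe sets, 1 of which is dim, neither difference was called (0.31, adjusted p = 0.52 and -0.42, adjusted p = 0.243).

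The other large rises were carriers of iron, nucleotides, branched-chain amino acids, acylcarnitine and glycine. Slc25a28 (mitoferrin 2, which supplies iron for heme and iron-sulfur clusters) went from 7.20, 7.36, 7.40 and 7.38 to 10.63, 10.61, 10.77 and 10.76 in fertilized embryos. It went in SCNT embryos from 7.72 ± 0.23 to 10.56 ± 0.15, and in parthenogenetic embryos from 7.53 ± 0.11 to 10.12 ± 0.056. The rises of 3.36 (SE 0.16, adjusted p = 2.01e-21), 2.84 (SE 0.17, adjusted p = 5.19e-18) and 2.59 (SE 0.16, adjusted p = 2.36e-17) made it the member with the largest rise in SCNT and in parthenogenetic embryos. Slc25a36, a pyrimidine nucleotide carrier, went from 6.57, 6.83, 6.42 and 6.75 to 10.44, 10.23, 10.36 and 10.44 in fertilized embryos. It was at 9.34, 9.18, 9.21 and 8.80 in 2-cell SCNT embryos, at 6.93, 6.95, 6.71 and 6.82 in 1-cell parthenogenetic and at 6.74, 6.87, 6.71 and 6.88 in 2-cell parthenogenetic ones. So it was high in 2-cell fertilized, lower in 2-cell SCNT, and in 2-cell parthenogenetic embryos its arrays overlapped those of the 1-cell stage. The changes were 3.73 (SE 0.16, adjusted p = 3.9e-22), 2.43 (SE 0.18, adjusted p = 2.88e-15) and -0.05 (SE 0.16, adjusted p = 0.826), and they differed from fertilized by -1.30 (SE 0.24, adjusted p = 0.000104) in SCNT and -3.78 (SE 0.23, adjusted p = 8.6e-16) in parthenogenetic embryos. For the SCNT difference the other probe sets gave -1.71, called, and 0.29, not called. A second, dimmer probe set of Slc25a36 rose in all 3 origins, by 5.29, 5.58 and 2.90, and the mean of the probe sets gave 1.15 (adjusted p = 1.43e-05) in parthenogenetic embryos, so the absence of a rise there depends on the probe set.

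Slc25a44, which carries branched-chain amino acids, rose by 2.67, 1.79 and 1.40 in fertilized, SCNT and parthenogenetic embryos (SE 0.13 to 0.15), and its arrays went from 7.77, 7.48, 7.13 and 7.45 to 10.23, 10.15, 10.02 and 10.09 in the first. In each origin 1 of the 2 other probe sets of Slc25a44 was not called, and the lower of them was at 0.46, -0.00 and 0.06. Slc25a38, the glycine carrier needed for heme synthesis, rose by 1.96, 0.70 and 0.92. Its rise was smaller in SCNT (-1.26, SE 0.16, adjusted p = 2.48e-07) and in parthenogenetic embryos (-1.04, SE 0.16, adjusted p = 9.1e-07) than in fertilized ones. Slc25a20, the carnitine/acylcarnitine carrier of fatty acid oxidation, was at 7.04, 7.48, 7.95 and 7.94 in 1-cell and at 10.11, 9.54, 9.32 and 9.42 in 2-cell fertilized embryos. In parthenogenetic embryos it was at 7.60, 7.76, 7.26 and 7.65 at the 1-cell and at 7.01, 7.26, 6.69 and 7.10 at the 2-cell stage. It rose by 1.99 in fertilized and 1.84 in SCNT embryos and changed by -0.55 (SE 0.20, adjusted p = 0.0185) in parthenogenetic ones, a difference from fertilized of -2.55 (SE 0.28, adjusted p = 1.53e-09). The parthenogenetic fall was lost without 1-cell parthenogenetic replicate 2 (-0.49, adjusted p = 0.0599), without 2-cell parthenogenetic replicate 3 (-0.44, adjusted p = 0.0826) and with values as deposited (-0.39, adjusted p = 0.0944).

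**Figure D3:**
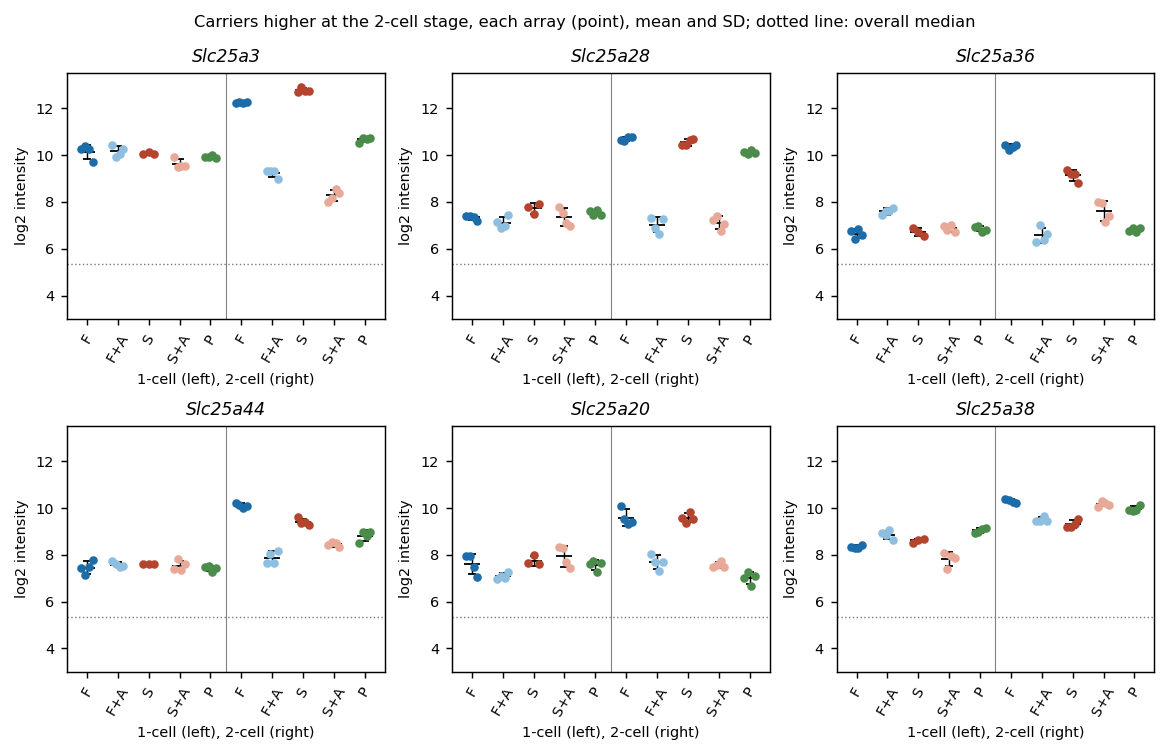
Log2 intensity of Slc25a3, Slc25a28, Slc25a36, Slc25a44, Slc25a20 and Slc25a38 on each array (points) with group mean and SD, groups as F fertilized, S SCNT, P parthenogenetic and +A with amanitin, 1-cell left and 2-cell right of the vertical line, dotted line the overall median. The untreated 2-cell fertilized arrays lie above all 1-cell arrays in each panel, the 2-cell parthenogenetic arrays do not for Slc25a36 and Slc25a20, and Slc25a28 is at 7.02 ± 0.32 and 7.11 ± 0.28 in 2-cell fertilized and SCNT embryos with amanitin, against 7.10 ± 0.24 and 7.36 ± 0.38 at the 1-cell stage.

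Among the falls, Slc25a48 (a member of the family whose substrate is less settled, linked to choline) was the largest in fertilized embryos. Its arrays went from 9.41, 9.85, 10.29 and 10.21 to 5.88, 6.54, 6.56 and 5.85 there, from 9.87, 9.88 and 9.71 to 6.59, 6.39, 7.16 and 6.47 in SCNT, and from 9.87, 9.59, 9.86 and 9.79 to 8.53, 7.80, 8.01 and 8.06 in parthenogenetic embryos. The 2-cell parthenogenetic arrays lay between the 1-cell arrays and the other untreated 2-cell arrays. The falls were -3.73, -3.17 and -1.68 (SE 0.18 to 0.19), and the parthenogenetic one differed from the fertilized one by 2.06 (SE 0.25, adjusted p = 1.12e-08). The falls were called with all 3 probe sets of Slc25a48, but that difference with 1 only, as the others gave -0.33 and 0.70. Slc25a1, the citrate carrier that feeds fatty acid synthesis, went from 8.16, 8.27, 8.40 and 8.50 to 5.91, 6.09, 6.15 and 6.15 in fertilized embryos and from 8.98, 9.06, 9.12 and 9.09 to 6.0, 7.07, 7.0 and 7.04 in parthenogenetic ones. It fell by 2.26, 2.55 and 2.29 in the 3 origins. Slc25a26, which imports the methyl donor S-adenosylmethionine, went from 8.48, 8.54, 8.71 and 8.64 to 6.15, 6.51, 6.16 and 5.95 in fertilized embryos. Its falls were -2.40, -2.34 and -1.07, and that of parthenogenetic embryos was the smaller (1.34, SE 0.28, adjusted p = 0.000155 against fertilized). Its other probe set was not called for the SCNT fall (-0.46) or for that difference (0.08). Smaller falls in all 3 origins were those of Slc25a17 (a peroxisomal carrier of cofactors), Slc25a35, Slc25a13 (citrin, the aspartate/glutamate carrier of liver) and Slc25a15 (the ornithine carrier of the urea cycle), between -0.29 and -1.91.

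By substrate, the fertilized stage change took 3 of 3 ADP/ATP carriers down (that of Slc25a4 not with the mean of its probe sets, -0.30, adjusted p = 0.0694), and of 9 amino acid carriers 2 up and 3 down, beside 60.1% of all genes tested (25.8% higher and 34.3% lower). Of 8 cofactor and nucleotide carriers 4 rose (Slc25a16, Slc25a32, Slc25a33 and Slc25a36) and 2 fell (Slc25a17 and Slc25a26), though the mean of the probe sets of Slc25a32 was at -0.10. Slc25a10, the dicarboxylate carrier, rose by 0.69 in fertilized and 1.17 in SCNT embryos and was at -0.03 in parthenogenetic ones, where it was not called. Slc25a14 fell by 1.29 and 1.20 in fertilized and SCNT embryos, and its parthenogenetic change was -0.28 and not called. The calcium-regulated ATP-Mg carrier Slc25a25 rose by 1.19 and 0.72 in fertilized and parthenogenetic embryos and was at 0.13 in SCNT embryos, a difference from fertilized of -1.05 (SE 0.26, adjusted p = 0.00272) that the mean of the probe sets did not keep (-0.63, adjusted p = 0.16). Another probe set of Slc25a25 was at 3.68 in fertilized embryos. For the SCNT difference its other probe sets gave -1.28 and 0.43, neither called. The near absence of a rise in SCNT embryos thus depends on the probe set. Slc25a12 (aralar, an aspartate/glutamate carrier) rose by 1.72 in SCNT embryos, was at 0.29 and not called in fertilized ones, and fell by 0.67 in parthenogenetic ones, where the mean of its probe sets was at 0.06. Its other probe sets were not called for the SCNT rise (-0.04 and 0.17). Slc25a42, a coenzyme A carrier, rose by 1.35 in SCNT embryos and was at 0.17 and not called in fertilized ones. Their SCNT changes differed from the fertilized ones by 1.42 (SE 0.25, adjusted p = 4.49e-05) and 1.18 (SE 0.35, adjusted p = 0.0133). With the mean of the probe sets both differences were lost (0.24, adjusted p = 0.565 and 0.64, adjusted p = 0.259), as was that of Slc25a42 without 1-cell SCNT replicate 3 (1.0, adjusted p = 0.0612). Slc25a2, Slc25a18, Slc25a30, Slc25a34, Slc25a45 and Slc25a54 were called in none of the 3 origins.

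The 3 origins share no arrays in these comparisons. Of 27 members called in fertilized and 28 in SCNT embryos, 19 changed in the same direction (9 up and 10 down), which is 70.4% of the first and 67.9% of the second, and 1, Slc25a4, in opposite directions. Of the 23 called in parthenogenetic embryos, 16 moved as in fertilized ones (59.3% of the fertilized and 69.6% of the parthenogenetic calls) and 3 the other way (Slc25a4, Slc25a5 and Slc25a20). These shares were not computed over all genes, so they do not set the family apart. Slc25a3, Slc25a16, Slc25a28, Slc25a38 and Slc25a44 rose in all 3 origins, and Slc25a1, Slc25a13, Slc25a15, Slc25a17, Slc25a26, Slc25a31, Slc25a35 and Slc25a48 fell in all 3. In each origin, however, 1 of the 2 other probe sets of Slc25a44 was not called. The other probe set of Slc25a15 was not called in parthenogenetic embryos (-0.37), nor that of Slc25a26 in SCNT embryos (-0.46). With median centring Slc25a16 turned to -0.16 (adjusted p = 0.4) in parthenogenetic embryos, and Slc25a16 and Slc25a38 lost their call in SCNT embryos (0.28, adjusted p = 0.138 and 0.30, adjusted p = 0.0579). The falls of Slc25a17 rest on 1 probe set. Its other probe set was called in none of the 3 origins (-0.44 in fertilized, 0.44 in SCNT and 0.09 in parthenogenetic embryos), and with the mean of the probe sets the SCNT fall was lost (-0.35, adjusted p = 0.176). The parthenogenetic fall was lost with only the compared groups in the fit (-0.79, adjusted p = 0.139). It was lost too with values as deposited (-0.36, adjusted p = 0.274), with the mean of the probe sets (-0.35, adjusted p = 0.169), and without replicates 1 or 2 of the 1-cell and 2 or 3 of the 2-cell parthenogenetic arrays (-0.56 to -0.62). That of Slc25a13 was lost without 1-cell parthenogenetic replicate 4 (-0.41, adjusted p = 0.0506).

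The test of the difference in stage change called 11 members for SCNT minus fertilized, 5 up and 6 down, beside 19.1% of all genes tested (8.64% higher and 10.4% lower). For parthenogenetic minus fertilized it called 20, 10 up and 10 down, beside 35.5% of all genes tested (19.8% higher and 15.7% lower). With median centring the splits were 3 up and 8 down, and 6 up and 11 down.

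**Figure D4:**
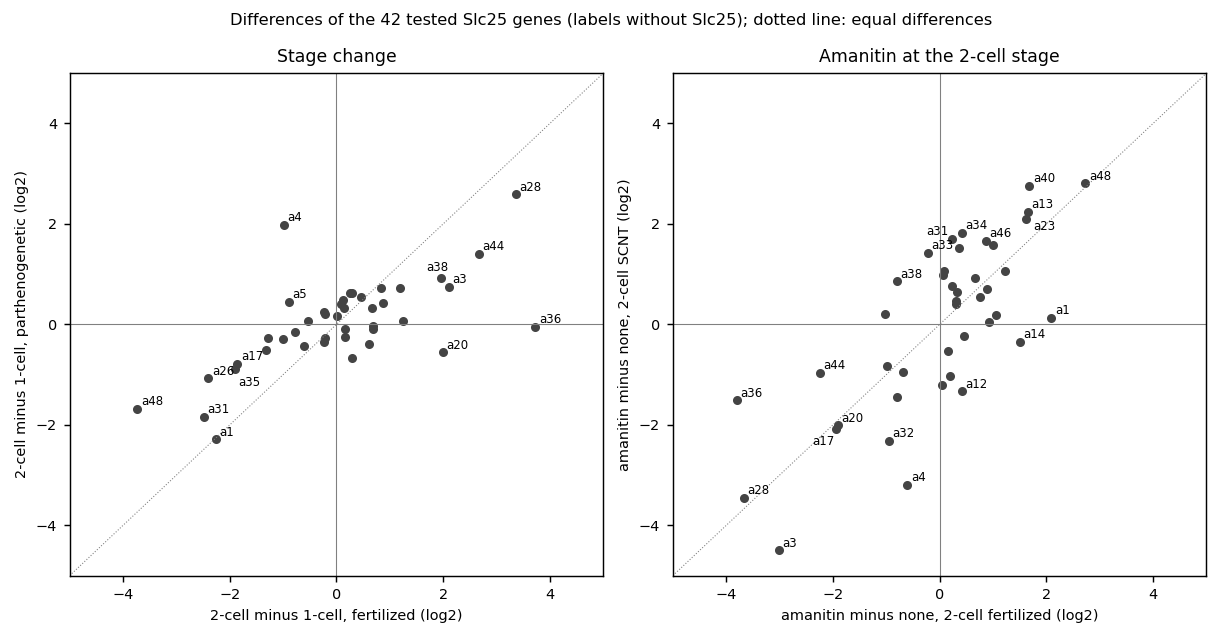
Each point is 1 of the 42 tested genes (labels leave out the prefix Slc25), with differences in log2 units; left, 2-cell minus 1-cell in fertilized (horizontal) and parthenogenetic embryos (vertical), right, amanitin minus none at the 2-cell stage in fertilized (horizontal) and SCNT embryos (vertical), dotted line equal differences. On the left a36 and a20 lie far below the line and a4 far above it; a5 lies above 0 on the vertical axis but falls to -0.19 with median centring. On the right a4 and a3 lie below the line and a36 and a38 above it.

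Promoter sequence is shown for 6 of the members that moved in the same direction in all 3 origins, 3 that rose and 3 that fell. Slc25a16, which rose, and Slc25a13 and Slc25a17, which fell, also had a single window and are not printed. Whether the stage changes depend on these sequences was not tested. Each line gives the 150 bases before the annotated start, read 5′ to 3′ on the strand of the gene from the RefSeq table of GRCm38.p6, with motif matches on either strand in capitals. Members that rose were Slc25a3 at chr10:91123968-91124117 (- strand), Slc25a28 at chr19:43674882-43675031 (- strand) and Slc25a38 at chr9:120110232-120110381 (+ strand).
Slc25a3: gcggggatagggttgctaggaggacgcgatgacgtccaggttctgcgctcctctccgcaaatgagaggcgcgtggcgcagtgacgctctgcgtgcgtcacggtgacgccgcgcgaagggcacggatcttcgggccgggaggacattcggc
Slc25a28: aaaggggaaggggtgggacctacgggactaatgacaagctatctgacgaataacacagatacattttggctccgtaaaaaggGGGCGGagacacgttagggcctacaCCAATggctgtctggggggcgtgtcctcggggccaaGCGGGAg
Slc25a38: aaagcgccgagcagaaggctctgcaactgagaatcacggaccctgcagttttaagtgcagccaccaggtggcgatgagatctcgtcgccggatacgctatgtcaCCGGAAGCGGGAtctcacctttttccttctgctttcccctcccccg
Members that fell were Slc25a1 at chr16:17928220-17928369 (- strand), Slc25a31 at chr3:40708721-40708870 (+ strand) and Slc25a48 at chr13:56438205-56438354 (+ strand).
Slc25a1: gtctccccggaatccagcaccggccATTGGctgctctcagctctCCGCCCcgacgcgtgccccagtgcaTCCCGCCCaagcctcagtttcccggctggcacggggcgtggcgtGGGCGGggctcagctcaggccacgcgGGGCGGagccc
Slc25a31: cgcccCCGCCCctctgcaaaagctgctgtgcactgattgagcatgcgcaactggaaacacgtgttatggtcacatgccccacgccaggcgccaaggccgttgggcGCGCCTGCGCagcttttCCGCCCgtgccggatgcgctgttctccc
Slc25a48: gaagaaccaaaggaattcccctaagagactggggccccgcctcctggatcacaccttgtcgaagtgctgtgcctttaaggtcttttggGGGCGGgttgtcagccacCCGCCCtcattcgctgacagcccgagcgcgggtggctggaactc

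The letters searched were TATAAA (the core promoter box), CCAAT (the NF-Y box), GGGCGG (the GC box), CCGGAAG (ETS core), the NRF1 core, TCCCGC (E2F core) and TGACGTCA (the cAMP response element), on both strands, and matches of the ETS and E2F letters in Slc25a38, and of the E2F and GC box letters in Slc25a1, overlap. Slc25a28 holds a GC box, a CCAAT box and E2F letters, and Slc25a3 holds none of the 7 in this window. Slc25a1 holds 4 GC boxes, a CCAAT box and E2F letters, Slc25a31 2 GC boxes and the NRF1 letters, and Slc25a48 2 GC boxes. Of the single windows not printed, that of Slc25a16 holds none of the 7, that of Slc25a13 a CCAAT box and that of Slc25a17 the ETS letters. Of the 44 members 34 had a window in the table, and 6 had several, of which the first listed was searched. The background counts every distinct window, also several of 1 gene, so the shares of members and of all windows are not of like units. In the 250 bases before the start, GGGCGG was present in 24 of 34 (70.6%) beside 32.7% of all 32817 windows, CCAAT in 15 (44.1%) beside 33.8%, and TATAAA in 1 (2.94%) beside 12.4%. CCGGAAG was present in 6 (17.6%) beside 6.90%, TCCCGC in 7 (20.6%) beside 16.9%, the NRF1 core in 2 (5.88%) beside 3.73% and TGACGTCA in 1 (2.94%) beside 1.55%. These are matches of letters and were not tested as sites.

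In 2-cell fertilized embryos 29 of 42 members differed with amanitin, 17 higher and 12 lower, beside 64.4% of all genes tested (38.6% higher and 25.7% lower). In 2-cell SCNT embryos 33 differed, 18 higher and 15 lower, beside 69.3% of all genes tested (39.7% higher and 29.6% lower). In 1-cell fertilized embryos 3 differed, all higher, beside 5.99% of all genes tested (3.57% higher and 2.43% lower), and in 1-cell SCNT embryos 1, lower, beside 0.43% of all genes tested (0.0806% higher and 0.349% lower). With median centring the 1-cell fertilized count became 13, all higher. In each of these comparisons the share of members called can be read only beside that of all genes. The median difference of the members was 0.27 and 0.31 at the 2-cell stage in fertilized and SCNT embryos, and 0.28 in both for all genes. The untreated 2-cell arrays enter both these comparisons and the stage changes above, so the values of a gene in the 2 are not independent of each other.

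Of the family, Slc25a3 differed most with amanitin in SCNT embryos. Its arrays with amanitin were at 9.31, 9.31, 9.34 and 8.97 in fertilized and 8.01, 8.17, 8.55 and 8.40 in SCNT embryos, below all untreated 2-cell arrays and also below the 1-cell arrays with amanitin (10.43, 9.93, 10.04 and 10.28 in fertilized, 9.49, 9.93, 9.53 and 9.53 in SCNT). The difference was -3.02 (SE 0.12, adjusted p = 2.33e-23) in fertilized and -4.5 (SE 0.12, adjusted p = 6.48e-29) in SCNT embryos, which is 8.13-fold and 22.7-fold lower, and the SCNT effect was the larger (-1.48, SE 0.17, adjusted p = 4.16e-09). That difference was not called with the mean of the probe sets (-0.45, adjusted p = 0.202). Slc25a28 with amanitin was at 7.31, 6.89, 6.64 and 7.25 in fertilized and 7.22, 7.41, 6.76 and 7.05 in SCNT embryos, with differences of -3.67 (SE 0.16, adjusted p = 1.23e-22) and -3.45 (SE 0.16, adjusted p = 6.96e-22). Slc25a20 was lower in both (-1.91 and -2.01), as was Slc25a17 (-1.95 and -2.08).

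Slc25a36 with amanitin was at 6.27, 7.01, 6.36 and 6.63 in fertilized and 8.01, 7.97, 7.13 and 7.38 in SCNT embryos. Both groups lay below their untreated 2-cell arrays, and the amanitin SCNT arrays above the amanitin fertilized ones. The difference was -3.80 (SE 0.16, adjusted p = 2.16e-22) in fertilized and -1.51 (SE 0.16, adjusted p = 1.13e-10) in SCNT embryos, and the effects differed by 2.29 (SE 0.23, adjusted p = 1.79e-10). That difference rests on 1 probe set: the other probe sets of Slc25a36 gave -0.52 and 0.96, neither called, and their SCNT differences were -6.09 and -0.77, the latter not called. Slc25a44 was lower (-2.25 in fertilized and -0.97 in SCNT embryos), though 1 of its other probe sets was higher in SCNT embryos (0.56). Slc25a32, a carrier of folate and flavin, was at 8.47, 8.26, 7.95 and 8.30 with amanitin in fertilized and 6.59, 7.15, 5.71 and 6.46 in SCNT embryos, against 9.20 ± 0.11 and 8.80 ± 0.22 without (-0.96 and -2.32).

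Slc25a4 was at 5.48, 6.62, 5.54 and 6.04 with amanitin in fertilized and at 5.97, 5.26, 4.51 and 5.03 in SCNT embryos. The SCNT arrays with amanitin lay well below the untreated SCNT arrays (8.39 ± 0.28), and the fertilized arrays overlapped (6.53 ± 0.17 untreated). The difference was -3.19 (SE 0.21, adjusted p = 1.27e-16) in SCNT and -0.60 (SE 0.21, adjusted p = 0.0131) in fertilized embryos, and the interaction was -2.59 (SE 0.30, adjusted p = 4.68e-09). The amanitin SCNT mean of 5.19 lies below the overall median of 5.34, so the sizes of the SCNT difference and the interaction are uncertain. The fertilized difference was lost without amanitin replicate 1 (-0.46, adjusted p = 0.0752) or 3 (-0.48, adjusted p = 0.0659) and with only the compared groups in the fit (-0.60, adjusted p = 0.056), but the other probe sets of Slc25a4 were called lower there (-2.13 and -1.25). Slc25a5 was at 10.97, 11.14, 11.23 and 10.88 with amanitin in fertilized embryos, all above the untreated arrays (1.06, SE 0.11, adjusted p = 2.93e-11), and at 9.91, 9.64, 9.97 and 9.84 in SCNT embryos, where the arrays overlapped (0.19, SE 0.11, adjusted p = 0.114). The interaction was -0.87 (SE 0.15, adjusted p = 1.27e-05). Slc25a31 was at 7.96, 7.79, 8.14 and 8.13 with amanitin in fertilized and at 8.25, 8.51, 7.58 and 8.18 in SCNT embryos. It was higher with amanitin in SCNT embryos (1.70, SE 0.16, adjusted p = 2.42e-12) and not called, with overlapping arrays, in fertilized ones (0.23, SE 0.16, adjusted p = 0.219), an interaction of 1.47 (SE 0.23, adjusted p = 1.15e-06).

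Several members were higher with amanitin. Slc25a48 was at 9.07, 8.92, 8.99 and 8.78 in fertilized and at 9.18, 9.39, 9.71 and 9.57 in SCNT embryos, against 6.21 ± 0.39 and 6.65 ± 0.35 without amanitin. Its differences of 2.73 and 2.81 were the largest increases of the family in both. Slc25a40, a glutathione carrier, was at 6.96, 7.29, 7.46 and 7.77 without and at 9.16, 8.90, 8.73 and 9.41 with amanitin in fertilized embryos. In SCNT embryos it was at 7.76, 7.62, 7.79 and 7.77 without and at 10.47, 10.50, 10.32 and 10.72 with it. It was higher by 1.68 and 2.76, more in SCNT embryos (1.09, SE 0.25, adjusted p = 0.000485). Slc25a13 was higher by 1.65 and 2.24, with arrays at 8.08, 8.50, 8.09 and 8.10 in fertilized and 8.99, 8.84, 8.71 and 8.82 in SCNT embryos, and Slc25a23, an ATP-Mg carrier, by 1.61 and 2.10. Slc25a1 was at 8.35, 8.29, 8.13 and 7.91 with amanitin in fertilized and 6.86, 7.06, 5.97 and 7.41 in SCNT embryos, so that it was higher in the first (2.09, SE 0.21, adjusted p = 1.65e-11) and not called in the second (0.14, SE 0.21, adjusted p = 0.575), an interaction of -1.96 (SE 0.30, adjusted p = 8.95e-07). Slc25a14 was higher in fertilized embryos (1.5) and at -0.34 in SCNT embryos, where it was not called (-1.85, SE 0.24, adjusted p = 3.47e-08).

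**Figure D5:**
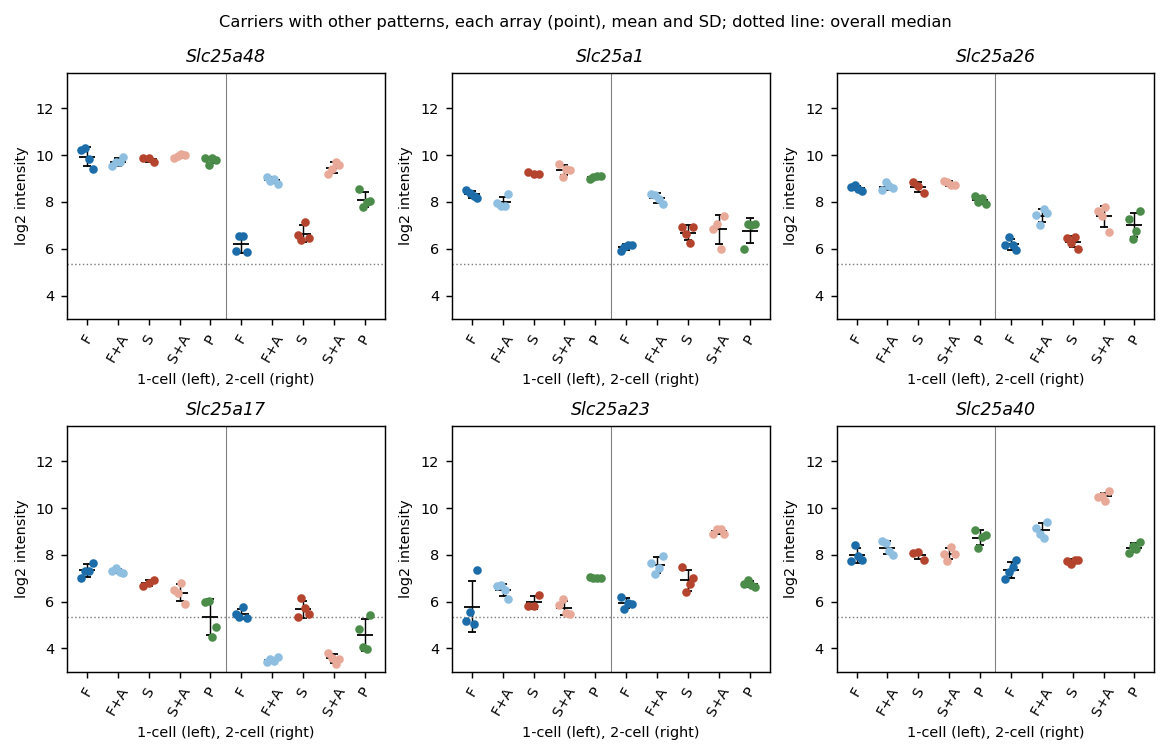
Log2 intensity of Slc25a48, Slc25a1, Slc25a26, Slc25a17, Slc25a23 and Slc25a40 on each array (points) with group mean and SD, groups as F fertilized, S SCNT, P parthenogenetic and +A with amanitin, 1-cell left and 2-cell right of the vertical line, dotted line the overall median. Slc25a48 is lowest in untreated 2-cell fertilized and SCNT embryos and is at 8.94 ± 0.12 and 9.46 ± 0.23 there with amanitin, Slc25a17 is lowest with amanitin (3.52 ± 0.087 and 3.58 ± 0.19), and Slc25a23 and Slc25a40 are highest in amanitin 2-cell SCNT embryos (9.01 ± 0.13 and 10.50 ± 0.17).

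Of the 29 and 33 members called in fertilized and SCNT embryos, groups that share no arrays, 20 moved the same way (10 higher and 10 lower, 69.0% of the first and 60.6% of the second). The like shares of all genes were not computed, so these do not set the family apart. Slc25a12 and Slc25a38 moved opposite ways, but both calls of Slc25a12 rest on 1 probe set. With the mean of its probe sets neither was kept: the fertilized one went from 0.41 to 0.08 (adjusted p = 0.674) and the SCNT one from -1.33 to -0.29 (adjusted p = 0.105), and in SCNT embryos its other probe sets were at 0.03 and 0.42, not called. The fertilized call was lost too with values as deposited (0.26, adjusted p = 0.18), with median centring (0.26, adjusted p = 0.16), and without untreated replicate 2 or 3 or amanitin replicate 3 or 4 (0.34 to 0.41). Slc25a38 was at 10.38, 10.36, 10.26 and 10.23 without and at 9.47, 9.45, 9.66 and 9.43 with amanitin in fertilized embryos. In SCNT embryos it was at 9.19, 9.21, 9.31 and 9.55 without and at 10.06, 10.29, 10.22 and 10.13 with it. It was lower with amanitin in the first (-0.80, SE 0.11, adjusted p = 3.69e-08) and higher in the second (0.86, SE 0.11, adjusted p = 6.78e-09). The interaction test called 24 members, 13 up and 11 down, beside 38.9% of all genes tested (17.8% higher and 21.1% lower). Besides those named, Slc25a33, a pyrimidine nucleotide carrier, was higher with amanitin by 1.43 in SCNT embryos and at -0.22 in fertilized ones (1.65, SE 0.25, adjusted p = 9.72e-07).

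At the 1-cell stage, Slc25a36 was at 7.43, 7.60, 7.60 and 7.76 with amanitin in fertilized embryos, above all untreated arrays (0.95, SE 0.16, adjusted p = 0.00035). Slc25a16, implicated in coenzyme A transport, and Slc25a38 were higher too (0.62 and 0.52). With values as deposited the split over the family became 3 higher and 4 lower, and with the mean of the probe sets Slc25a36 was not called (0.66, adjusted p = 0.0652). In 1-cell SCNT embryos Slc25a38 was at 8.53, 8.64 and 8.68 without and 7.41, 8.07, 7.97 and 7.88 with amanitin (-0.78, SE 0.12, adjusted p = 0.000281), a call that was lost with only the compared groups in the fit (-0.78, adjusted p = 0.195).

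The stages were compared with amanitin present at both as well. Here too a rise is relative to the other poly(A) RNA on the array, and whether the amount of an RNA rose was not tested. From the 1-cell to the 2-cell stage 26 members changed in fertilized embryos, 17 upward and 9 downward, beside 40.7% of all genes tested (21.6% higher and 19.1% lower). In SCNT embryos 31 changed, 18 upward and 13 downward, beside 55.5% of all genes tested (25.7% higher and 29.8% lower). With median centring the splits were 5 upward and 13 downward, and 12 upward and 16 downward, so many of the smaller rises rest on the scaling. Slc25a17 went from 7.31, 7.44, 7.28 and 7.23 to 3.42, 3.55, 3.49 and 3.63 in fertilized embryos and from 6.37, 6.52, 6.78 and 5.89 to 3.82, 3.61, 3.35 and 3.55 in SCNT embryos. These were falls of 3.79 (SE 0.28, adjusted p = 3.13e-14) and 2.81 (SE 0.28, adjusted p = 2.92e-11). The 2-cell levels lie below the overall median, so the sizes are uncertain, and the other probe set of Slc25a17 was at -0.96 in fertilized and at 0.68, not called, in SCNT embryos. Slc25a31 fell by 2.29 (SE 0.16, adjusted p = 5.05e-15) and 1.55 (SE 0.16, adjusted p = 6.09e-11), from 10.29 ± 0.075 to 8.01 ± 0.17 and from 9.67 ± 0.20 to 8.13 ± 0.40. Slc25a4 fell by 1.66 and 1.90, Slc25a26 by 1.24 and 1.41, Slc25a35 by 1.32 and 0.57, and Slc25a3 by 0.94 and 1.34. The 2-cell SCNT mean of Slc25a4 with amanitin also lies below the overall median, so the size of that fall is uncertain. The SCNT fall of Slc25a35 was lost with values as deposited (-0.24, adjusted p = 0.307) and with only the compared groups in the fit (-0.57, adjusted p = 0.0818). Slc25a48, which fell by 3.73 without amanitin in fertilized embryos, fell by 0.78 with it, a call that the mean of the probe sets did not keep (-0.29, adjusted p = 0.111). Slc25a28 was at -0.08 and -0.25 with amanitin and not called in either origin.

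Both origins shared 21 of these changes (13 up and 8 down, 80.8% of the fertilized and 67.7% of the SCNT calls). Sharing was not computed over all genes, so it does not set the family apart. Slc25a11 and Slc25a36 moved opposite ways, Slc25a36 by -1.03 in fertilized and 0.75 in SCNT embryos. The latter was not called with median centring (0.34, adjusted p = 0.0786) or with the mean of the probe sets (0.32, adjusted p = 0.2), and its other probe sets were called in neither origin. The fertilized rise of Slc25a11 turned to -0.01 (adjusted p = 0.975) with median centring, and was lost without 1-cell amanitin replicate 3 (0.43, adjusted p = 0.0579) or 2-cell amanitin replicate 1 (0.44, adjusted p = 0.0565). The largest rises were in SCNT embryos: Slc25a23 went from 6.12, 5.86, 5.50 and 5.46 to 8.89, 9.13, 9.13 and 8.90 (3.27, SE 0.29, adjusted p = 5.99e-13), Slc25a40 from 7.74, 8.05, 8.33 and 8.06 to 10.47, 10.50, 10.32 and 10.72 (2.45, SE 0.18, adjusted p = 2.47e-15), Slc25a38 rose by 2.34 and Slc25a16 by 2.25. In fertilized embryos the largest were Slc25a23 (1.06), Slc25a34 (0.99) and Slc25a45 (0.98). That of Slc25a34 was lost without 1-cell amanitin replicate 4 (0.59, adjusted p = 0.143). Slc25a1 fell by 2.54 in SCNT embryos and was at 0.19 in fertilized ones, and Slc25a32 fell by 2.14 in SCNT and 0.55 in fertilized embryos, the latter not without 2-cell amanitin replicate 3 (-0.46, adjusted p = 0.0533).

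Compared with fertilized embryos, 2-cell SCNT embryos differed in 22 members, 10 higher and 12 lower, beside 30.6% of all genes tested (14.3% higher and 16.3% lower). With values as deposited the split was 13 higher and 10 lower. The median difference of the members was 0.04 and that of all genes -0.05. Slc25a4 was the most raised, at 8.78, 8.23, 8.14 and 8.40 in SCNT against 6.52, 6.49, 6.75 and 6.35 in fertilized embryos (1.86, SE 0.21, adjusted p = 5.58e-09, 3.63-fold). Slc25a12 followed, at 9.16, 8.92, 9.06 and 8.82 against 7.79, 7.41, 7.63 and 7.66 (1.37, SE 0.17, adjusted p = 2.65e-08), a call that the mean of its probe sets did not keep (0.32, adjusted p = 0.141). Slc25a42 was at 7.84, 7.73, 7.55 and 7.52 against 6.66, 6.33, 6.25 and 6.64 (1.19, SE 0.24, adjusted p = 0.00012), and its other probe set was not called (0.50). None of these 3 pairs of groups overlapped. Slc25a3 was higher by 0.53 (SE 0.12, adjusted p = 0.00069), which was not called with median centring (0.21, adjusted p = 0.213) or with the mean of the probe sets (0.37, adjusted p = 0.159).

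On the lower side, Slc25a31 was at 6.21, 6.87, 6.20 and 6.43 in 2-cell SCNT against 7.78, 7.95, 7.88 and 7.51 in fertilized embryos (-1.35, SE 0.16, adjusted p = 1.06e-08). Slc25a36 was at 9.34, 9.18, 9.21 and 8.80 against 10.44, 10.23, 10.36 and 10.44 (-1.24, SE 0.16, adjusted p = 1.18e-07), with its other probe sets at -1.37, called, and 0.19, not called. Slc25a25 was at 6.84, 7.36, 6.94 and 7.28 against 8.14, 8.39, 8.2 and 8.19 (-1.12, SE 0.18, adjusted p = 2.71e-06), and its other probe sets were not called (-0.68 and -0.23). Slc25a38 was lower, with a difference of -0.99 (SE 0.11, adjusted p = 2.91e-09). Slc25a5 differed by -0.35 (SE 0.11, adjusted p = 0.012) with overlapping arrays, and lost its call without 2-cell SCNT replicate 4 (-0.26, adjusted p = 0.08), without 2-cell fertilized replicate 2 (-0.25, adjusted p = 0.0929) and with only the compared groups in the fit (-0.35, adjusted p = 0.0679). The 3 ADP/ATP carriers thus differed in both directions between SCNT and fertilized embryos.

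At the 1-cell stage 2 members differed between SCNT and fertilized embryos, beside 5.56% of all genes tested (2.88% higher and 2.69% lower). Slc25a1 was at 9.30, 9.20 and 9.20 in SCNT against 8.16, 8.27, 8.40 and 8.50 in fertilized embryos (0.90, SE 0.23, adjusted p = 0.0105), and Slc25a31 at 9.64, 10 and 9.39 against 10.02, 10.53, 10.29 and 10.22 (-0.59, SE 0.17, adjusted p = 0.0343). Neither pair of groups overlapped. Both calls were lost without 1-cell SCNT replicate 1 (0.87, adjusted p = 0.0561 and -0.57, adjusted p = 0.124), and that of Slc25a31 also without 1-cell SCNT replicate 4 (-0.44, adjusted p = 0.267), without 1-cell fertilized replicate 2 (-0.50, adjusted p = 0.139), 3 (-0.58, adjusted p = 0.0733) or 4 (-0.60, adjusted p = 0.0552), with median centring (-0.54, adjusted p = 0.0876), with the replicate block (-0.55, adjusted p = 0.0548) and with only the compared groups in the fit (-0.59, adjusted p = 0.08).

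Parthenogenetic and fertilized 2-cell embryos differed in 27 members, 14 higher and 13 lower, beside 47.4% of all genes tested (26.4% higher and 21% lower). Slc25a36 was at 6.74, 6.87, 6.71 and 6.88 in parthenogenetic against 10.44, 10.23, 10.36 and 10.44 in fertilized embryos (-3.57, SE 0.16, adjusted p = 2.85e-20, 11.9-fold lower), and its other probe sets were called lower too (-2.60 and -1.74). Slc25a20 was at 7.01, 7.26, 6.69 and 7.10 against 10.11, 9.54, 9.32 and 9.42 (-2.58, SE 0.20, adjusted p = 4.4e-14). Slc25a3 was at 10.50, 10.75, 10.68 and 10.75 against 12.22, 12.26, 12.24 and 12.29 (-1.59, SE 0.12, adjusted p = 4.77e-14). These 3 carriers move nucleotides, acylcarnitine and phosphate, and the parthenogenetic arrays of each lay below all fertilized ones. Slc25a4 was at 8.73, 8.64, 9.03 and 9.11 against 6.52, 6.49, 6.75 and 6.35 (2.35, SE 0.21, adjusted p = 4.71e-12, 5.11-fold higher), Slc25a48 at 8.53, 7.80, 8.01 and 8.06 against 5.88, 6.54, 6.56 and 5.85 (1.89, SE 0.18, adjusted p = 7.2e-12), and Slc25a5 at 11.33, 11.00, 11.16 and 11.41 against 10.02, 10.29, 9.88 and 9.79 (1.23, SE 0.11, adjusted p = 2.2e-12). Slc25a31 was lower (-0.58, SE 0.16, adjusted p = 0.00234).

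At the 1-cell stage 12 members differed between parthenogenetic and fertilized embryos, 7 higher and 5 lower, beside 20.4% of all genes tested (10.9% higher and 9.55% lower). Slc25a17 was at 5.97, 6.04, 4.5 and 4.93 against 7.67, 7.33, 7.30 and 7.03 (-1.97, SE 0.28, adjusted p = 1.42e-06), and Slc25a31 at 9.06, 9.06, 9.12 and 8.93 against 10.02, 10.53, 10.29 and 10.22 (-1.22, SE 0.16, adjusted p = 2.68e-07). Slc25a35 was lower too (-0.85). Slc25a16 was at 9.80, 9.83, 9.66 and 9.62 against 8.72, 8.84, 8.66 and 8.70 (1.0, SE 0.11, adjusted p = 6.9e-09), and Slc25a38 and Slc25a1 were higher by 0.70 and 0.73. Slc25a4 was lower (-0.61, SE 0.21, adjusted p = 0.0386), a call that was lost without fertilized replicate 1, 3 or 4 and without parthenogenetic replicate 1, 2 or 4 (-0.56 to -0.60), with the lower constant (-0.63, adjusted p = 0.0544) and with the probe set that is highest on the deposited scale (-0.79, adjusted p = 0.0776). So Slc25a31 and Slc25a4 stood below fertilized embryos at the 1-cell stage, and at the 2-cell stage Slc25a31 did and Slc25a4 stood above them.

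With amanitin, SCNT and fertilized embryos differed in 24 members at the 2-cell stage, 15 higher and 9 lower, beside 43.3% of all genes tested (18.6% higher and 24.7% lower). At the 1-cell stage 12 differed, 5 higher and 7 lower, beside 21.6% of all genes tested (10.2% higher and 11.4% lower). With median centring the splits were 7 higher and 10 lower, and 4 higher and 16 lower. At the 2-cell stage Slc25a14 was at 7.91, 8.67, 8.83 and 7.85 in SCNT against 10.38, 10.22, 10.30 and 10.20 in fertilized embryos (-1.96, SE 0.17, adjusted p = 9.85e-13). Slc25a32 was at 6.59, 7.15, 5.71 and 6.46 against 8.47, 8.26, 7.95 and 8.30 (-1.77, SE 0.18, adjusted p = 5.64e-11). Slc25a1 was at 6.86, 7.06, 5.97 and 7.41 against 8.35, 8.29, 8.13 and 7.91 (-1.35, SE 0.21, adjusted p = 1.01e-06). The SCNT arrays of all 3 were below the fertilized ones. Slc25a5 (-1.22) and Slc25a3 (-0.95) were lower too, the latter not with the mean of the probe sets (-0.08, adjusted p = 0.774), and Slc25a31 was not called (0.12). Slc25a23 was at 8.89, 9.13, 9.13 and 8.90 against 7.66, 7.17, 7.42 and 7.97 (1.46, SE 0.29, adjusted p = 4.51e-05), Slc25a40 was higher by 1.45, and Slc25a36 by 1.05, which its probe sets together did not keep (0.10, adjusted p = 0.734). At the 1-cell stage Slc25a1 was at 9.07, 9.63, 9.41 and 9.37 in SCNT against 7.96, 7.84, 7.81 and 8.32 in fertilized embryos (1.39, SE 0.21, adjusted p = 2.91e-06), Slc25a38 at 7.41, 8.07, 7.97 and 7.88 against 8.92, 8.85, 9.05 and 8.64 (-1.03, SE 0.11, adjusted p = 3.65e-09), and Slc25a35 was lower too (-1.06).

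Of 37 genes listed as working beside the carriers (other mitochondrial channels, relatives outside the Slc25a symbols, the import route, shuttle and carnitine enzymes), 32 were measured and 31 tested. Between the stages 11 rose and 12 fell in fertilized, 12 and 10 in SCNT, and 8 and 11 in parthenogenetic embryos, beside 60.1%, 60.8% and 49.2% of all genes tested called in either direction. With amanitin at the 2-cell stage 12 were higher and 15 lower in fertilized embryos, and 9 higher and 13 lower in SCNT embryos, beside 64.4% and 69.3%. The largest differences with amanitin were those of Mdh2, the matrix malate dehydrogenase, and of Timm10, a small Tim chaperone that carries Slc25 proteins to the inner membrane. Mdh2 differed by -3.20 (SE 0.27, adjusted p = 1.6e-13) in fertilized and by -5.91 (SE 0.27, adjusted p = 9.68e-22) in SCNT embryos. Timm10 differed by -4.43 (SE 0.20, adjusted p = 5.61e-22) and -4.59 (SE 0.20, adjusted p = 1.5e-22). Mtch2, an outer membrane relative of the family, was lower as well (-2.75 and -3.89). Tomm70a, the receptor for carrier precursors, was at -1.32 and -3.05. Cpt1c, a brain relative of the carnitine palmitoyltransferases, was at -1.34 and -2.73, and Micu2, a regulator of calcium uptake, at 1.67 and 2.62.

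The members not yet described are given by their main calls. Slc25a47, a carrier known from liver, rose with stage by 1.25 in fertilized and 1.08 in SCNT embryos and was lower with amanitin in both (-0.98 and -0.82). It was lower in parthenogenetic than in fertilized 2-cell embryos (-0.99, SE 0.20, adjusted p = 7.46e-05). Slc25a39, a glutathione carrier, was higher in 2-cell SCNT than in fertilized embryos, at 11.09, 10.48, 10.60 and 10.48 against 10.12, 9.68, 9.80 and 9.64 (0.85, SE 0.16, adjusted p = 4.41e-05). Slc25a46, a member in the outer membrane that acts in mitochondrial shape, was higher with amanitin by 0.87 in fertilized and 1.67 in SCNT embryos. With the mean of its probe sets the first was not called (0.27, adjusted p = 0.11), and its other probe set was called in neither (-0.32 and 0.56).

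Slc25a11, the oxoglutarate carrier of the malate shuttle, was lower with amanitin in SCNT embryos (-1.03, SE 0.17, adjusted p = 9.13e-07) and at 0.20 in fertilized ones, where it was not called. Slc25a22, a glutamate carrier, was higher with amanitin in fertilized embryos by 0.93 and at 0.05 and not called in SCNT ones. Slc25a34, of unsettled substrate, was higher with amanitin in SCNT embryos, at 7.27, 7.55, 7.18 and 7.59 against 5.77, 5.53, 5.90 and 5.11 (1.82, SE 0.33, adjusted p = 5.01e-06), and Slc25a53 was too (1.07), though its probe sets together were at -0.11. Slc25a29, a carrier of basic amino acids, rose with stage in parthenogenetic embryos by 0.62, which the mean of its probe sets did not keep (0.08, adjusted p = 0.756). Slc25a30, an uncoupling protein relative, was lower with amanitin in SCNT embryos (-1.20, SE 0.19, adjusted p = 7.84e-07) with overlapping arrays. In 2-cell SCNT embryos Slc25a18 was called lower with amanitin (-0.95), and Slc25a24 (0.99) and Slc25a45 (0.65) were called higher. In 2-cell fertilized embryos Slc25a27 was called higher (0.88). The call of Slc25a18 was lost without untreated replicate 2, 3 or 4 or amanitin replicate 2 or 3 (-0.58 to -0.95), and that of Slc25a45 without untreated replicate 1 or 2 or amanitin replicate 2, 3 or 4 (0.46 to 0.67), with values as deposited (0.42) and with median centring (0.37). That of Slc25a27 was lost without untreated replicate 2 (0.49, adjusted p = 0.2) or amanitin replicate 2 (0.75, adjusted p = 0.0761), and its other probe set was at -0.50, not called.

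The choice of probe set mattered for some members. Of the 44, 20 had more than 1 probe set that passed the filter. Of their 180 calls, another probe set was called in the same direction in 109 and in the opposite direction in 13. Slc25a51, a carrier of NAD, accounted for 5 of the 13: with amanitin its brightest probe set was higher by 0.66 in fertilized and 0.93 in SCNT embryos, and another was at -2.98 and -3.68. Slc25a26 was higher with amanitin in SCNT embryos by 1.07, and its other probe set was at -1.97. Slc25a15 held 3 of the 13, and Slc25a27, Slc25a29, Slc25a44 and Slc25a46 1 each. No direction can be given for Slc25a51 with amanitin from these probe sets.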

How the data were processed

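Poly(A) RNA of 40 embryo samples was hybridised to Affymetrix mouse arrays after PicoPure extraction and Enzo biotin labelling, per the labels' protocols. The deposited values are linear intensity per probe set, and on every array with values their mean without the lowest and highest 2% is 150, so the authors scaled each array to that target. The software that summarised the probes is not given in the sources used here. Of 40 columns 39 held values.

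The table has 45101 probe sets, 64 of them controls. Probe sets were named from GEO's platform annotation: 34945 had 1 gene, 932 several and 9160 none, and the latter 2 kinds were set aside. Values plus 6.9, the 20th percentile, were taken to log2 and quantile normalized, and each gene was given its probe set of highest mean. Genes above the overall median of 5.34 on 4 or more arrays were kept, 14880 of 18194. The constant understates the changes of dim genes. All 10 groups were fitted in 1 model with limma 3.58.1 in R 4.3.3 (eBayes with trend, 29 residual degrees of freedom) for 15 comparisons and 3 interactions, and p-values were adjusted by Benjamini-Hochberg over the 14880 genes of each.

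The script was tested on simulated data for the stage comparison in fertilized embryos: of 200 planted changes among 14880 genes, 20.9%, 58.2% and 89.4% of those of 0.5, 1 and 2 log2 units were recovered, with 5.88% false among 119 calls. Same-numbered replicates of compared groups had deviations that correlated at -0.0491 to 0.0924, so the numbers were not taken as pairs. Other scalings, constants, filters, probe set rules, samples in the fit, a replicate block and leaving out each array were tried.

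The members and lists were chosen with earlier results of these data known. Every Slc25a gene could be named. The figures show every array for the ADP/ATP carriers and the phosphate carrier, and the text prints most of these values. Up to 3 largest called increases and decreases per comparison without overlap of arrays are named, some with array values and others with the difference only. A few more were named after their values were seen. Of the partner list, the 6 genes with the largest called differences at the 2-cell stage are named. Promoter letters come from RefSeq (GRCm38.p6).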

Additional observations from a re-analysis of the deposited data

Results flagged for a closer look

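Arrays that stood apart from the other 3 of their group were found in 15 of 234 groups tested over 26 genes, 6.41%, where chance gives about 1 group in 20. Slc25a3 was low on 1-cell fertilized replicate 1 (9.697) and on 2-cell amanitin fertilized replicate 4 (8.97), and high on 1-cell amanitin SCNT replicate 2 (9.926). Slc25a1 was low on 2-cell parthenogenetic replicate 1 (6.003, the others 6.995 to 7.067). Slc25a5 was low on 1-cell parthenogenetic replicate 1 (10.63), and Slc25a14 on 2-cell parthenogenetic replicate 2 (9.653). Slc25a12 was high on 1-cell amanitin fertilized replicate 3 (7.757) and low on 1-cell parthenogenetic replicate 4 (7.68). Slc25a13 was low on 2-cell fertilized replicate 1 (6.268) and high on 2-cell amanitin fertilized replicate 2 (8.504). Slc25a25 was high on 1-cell fertilized replicate 3 (7.492) and low on 1-cell amanitin fertilized replicate 3 (6.135). Slc25a34 was low on 1-cell fertilized replicate 2 (5.317, the others 6.032 to 6.137), and Slc25a45 on 2-cell fertilized replicate 3 (6.095, the others 6.972 to 7.07). Slc25a38 was high on 2-cell amanitin fertilized replicate 3 (9.663).

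Changes that differed between origins by the test of the difference are given as values. Several of them, such as those of Slc25a36, Slc25a12, Slc25a42 and Slc25a3, were not kept with other probe sets or settings, as given above. The effect of amanitin at the 2-cell stage, SCNT minus fertilized, differed by 2.29 for Slc25a36, 1.66 for Slc25a38, 1.65 for Slc25a33 and 1.47 for Slc25a31. It differed by -2.59 for Slc25a4, -1.96 for Slc25a1, -1.85 for Slc25a14, -1.48 for Slc25a3 and -0.87 for Slc25a5. The stage change, SCNT minus fertilized, differed by 2.36 for Slc25a4, 1.42 for Slc25a12, 1.18 for Slc25a42 and 0.60 for Slc25a3. It differed by -1.30 for Slc25a36, -1.26 for Slc25a38, -1.05 for Slc25a25 and -0.76 for Slc25a31. The stage change, parthenogenetic minus fertilized, differed by 2.96 for Slc25a4, 2.06 for Slc25a48, 1.34 for Slc25a5 and 0.64 for Slc25a31. It differed by -3.78 for Slc25a36, -2.55 for Slc25a20 and -1.37 for Slc25a3.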

How the results depend on the processing

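Of 326 counts of called members under other settings, 311 stayed within 1.5 times the reported count and 15 did not, all in 1-cell comparisons. With 42 members tested, the largest counts could not rise beyond that bound, and a count within it can hold other members. For the fertilized stage change under amanitin, median centring gave 18 calls against 26, with 14 shared. Among single members, 13151 of 13656 differences kept their call and its direction or stayed uncalled, and the direction of the uncalled ones was not compared. Of the rest, 302 lost the call, 172 gained one, and 31 turned sign with a call as reported or under the other setting. The 3 calls for amanitin in 1-cell fertilized embryos became 7 with values as deposited and 13 with median centring. The 2 for SCNT minus fertilized at the 1-cell stage became 1 with median centring, 1 with the replicate block and 1 with only the compared groups in the fit. The 12 for SCNT minus fertilized under amanitin at the 1-cell stage became 20 with median centring, and the 1 for amanitin in 1-cell SCNT embryos became 0 with only the compared groups. Leaving out single arrays gave 3 to 6 for amanitin in 1-cell fertilized embryos (6 without untreated replicate 1), 1 to 2 for amanitin in 1-cell SCNT embryos (2 without amanitin replicate 2), and 0 to 4 for SCNT minus fertilized at the 1-cell stage. The last was 0 without SCNT replicate 1, 4 without fertilized replicate 1, and 1 without fertilized replicate 2, 3 or 4 or SCNT replicate 4. The replicate block changed 5 member calls in all, 2 lost and 3 gained. The causes of these changes were not tested.

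With median centring the sign turned for Slc25a51 (-0.02 in the SCNT and -0.22 in the parthenogenetic stage change), Slc25a5 (-0.19) and Slc25a16 (-0.16, both parthenogenetic stage change), Slc25a13 (-0.53), Slc25a11 (-0.01) and Slc25a12 (-0.02, all fertilized stage change under amanitin), and Slc25a5 (0.34, 1-cell fertilized amanitin). With the mean of the probe sets it turned for Slc25a32 (-0.10, fertilized stage), Slc25a36 (1.15) and Slc25a12 (0.06, both parthenogenetic stage), Slc25a51 (-0.13, fertilized stage under amanitin), and Slc25a15 (-0.55) and Slc25a51 (-0.08, both SCNT stage under amanitin). With amanitin at the 2-cell stage it turned for Slc25a51 (-1.0) and Slc25a53 (-1.17) in fertilized, and for Slc25a29 (-0.02), Slc25a25 (-1.29), Slc25a51 (-1.26), Slc25a53 (-0.11) and Slc25a26 (-0.45) in SCNT embryos. For parthenogenetic minus fertilized it turned for Slc25a51 (-0.45) and Slc25a46 (-0.24) at the 2-cell and Slc25a48 (0.41) at the 1-cell stage. For SCNT minus fertilized under amanitin at the 2-cell stage it turned for Slc25a15 (-0.62), Slc25a29 (-0.32), Slc25a51 (-0.25) and Slc25a30 (0.00), and for the interactions for Slc25a15 (-0.14, amanitin), Slc25a51 (-0.74) and Slc25a46 (-0.66, both parthenogenetic stage change).

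Median centring moved the median of all genes from -0.04 to -0.26 in the parthenogenetic stage change and from 0.11 to -0.15 in the fertilized one under amanitin, where values as deposited gave 0.21 and 0.32. Slc25a2, Slc25a18, Slc25a24, Slc25a27 and Slc25a54 were near the overall median, where their changes are hard to measure.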
